A study of Sus scrofa with 22 samples.

Results

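Withdrawal of fibroblast growth factor 10 (FGF10) from the culture medium of pig taste organoids was examined in 6 of the 22 RNA sequencing libraries of the series. Membership was read from the sample titles alone: 3 libraries were titled as organoids in LPM, the growth medium, and 3 as organoids in LPM lacking FGF10. The organoids were grown from what the labels call a foliate cell line of Sus scrofa, named after the ridged taste papillae on the lateral tongue, and the labels describe the cells as a mixture of stem cells and mature taste cells. With FGF10 present its concentration was 100 ng/ml. The absence of FGF10 in the second arm rests on its titles and treatment label, since the growth protocol given for those samples lists the complete LPM recipe with FGF10. The rest of the recipe was taken to be common to both arms. That shared recipe supplied FGF2 (10 ng/ml) and EGF (50 ng/ml) as other growth factors, R-spondin 2 (500 ng/ml), and recombinant Wnt3a, SHH and noggin (100 ng/ml each). It also supplied insulin (10 nM), the GSK3 inhibitor CHIR99021 (2.5 µM), the TGF-beta receptor inhibitor A-83-01 (0.5 µM), the p38 inhibitor SB202190 (10 µM), the ROCK inhibitor Y-27632 (10 µM), forskolin (1 µM), prostaglandin E2 (20 nM), N-acetylcysteine (1.25 µM) and nicotinamide (10 mM), and cultures were fed at intervals of 48 h. Neither arm was therefore free of FGF. Whether a biological replicate was a pig, a line or a culture, and the day of harvest, are not stated in the labels, so the p-values measure only the spread between these samples, which may be technical.

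FGF10 is a secreted ligand that mesenchyme normally supplies to epithelium, where it binds the epithelial splice form of FGFR2 together with heparan sulfate. The activated receptor signals through the adaptors FRS2 and GRB2 to the kinase ERK, which switches on its own inhibitors of the SPRY, SPRED and DUSP families and the ETS factors ETV4 and ETV5. In the tongue FGF10 is known for its part in the development of the posterior taste papillae. FGF2, which stayed in both arms, prefers the mesenchymal splice forms of the receptors, and EGF reaches ERK through a receptor of its own.

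Depth was alike in the arms, with 20.77 to 25.23 M counts per library in LPM and 19.64 to 23.45 M without FGF10, and 17693 to 17834 genes detected in each. Markers of epithelium, among them CDH1, EPCAM, KRT5 and KRT8, summed to 9944 to 10076 CPM (counts scaled to a library of 1 M) in LPM and to 9552 to 9720.2 CPM without FGF10, and 0 of the 8 were called by edgeR, DESeq2 or limma-voom, with 4 at an unadjusted p under 0.05. Of 8 endothelial markers CDH5 and TEK, and of 10 immune markers CD3E and C1QA, had 0 counts in all 6 libraries. Other members were present, with KDR at 51.6 and EGFL7 at 22.7 CPM, and CD68 at 49.8 and AIF1 at 18 CPM, in LPM. The endothelial list summed to 75.2 to 81.7 CPM in LPM and 79.8 to 81.7 CPM without FGF10, and the immune list to 69.1 to 79.8 and 62.2 to 71.5 CPM. Their part in the results was not tested. The 10 fibroblast markers, of which DCN and LUM were at 0, summed to 21.5 to 23.6 CPM in LPM and 24 to 26.6 CPM without FGF10, and the 9 skeletal muscle markers to at most 0.815 CPM in any library. Taste cell genes were partly present: 2 of 6 listed genes of type I, 10 of 17 of type II and 6 of 15 of type III taste cells passed the filter on low counts. The first principal component of the 6 libraries carried 31.8% of the variance and put the LPM libraries between 3.43 and 4.97 and those lacking FGF10 between -5.98 and -3.04.

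More genes were lower than higher without FGF10, and most of the differences were small. Of 14262 genes tested, 171 fell (1.2%) and 83 rose (0.582%), which together made 254 called genes (1.78%) at an adjusted p under 0.05 in edgeR's quasi-likelihood test with Benjamini-Hochberg adjustment over all genes tested. The median called gene fell 1.22-fold or rose 1.31-fold, 20 fell and 17 rose at least 1.5-fold, and 5 fell and 2 rose at least 2-fold. In 165 of the genes that fell and 81 of those that rose, all 3 libraries of one arm lay outside the range of the other, which was also the case for 2373 of all 14262 genes (16.6%). The called genes that fell held mucins, secreted peptides, cornified envelope proteins, alarmins and antioxidant enzymes, and those that rose held the ligands SHH and IGF1, the transcription factor INSM1 and the Wnt inhibitor NOTUM. Without the second LPM library the count was 125 (43 higher, 82 lower), and without the first library lacking FGF10 it was 128 (37 higher, 91 lower). Over all 14262 genes, 7255 log2 fold changes were positive and 7007 negative, and 1676 genes had an unadjusted p under 0.05. A list of few genes with 0 calls is near the overall share of 1.78%. Lists and members were chosen with earlier results of these data known, so their counts cannot show an excess over the shares of all genes. In bulk RNA, fewer cells of a type and less RNA per cell cannot be told apart.

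**Figure D1:**
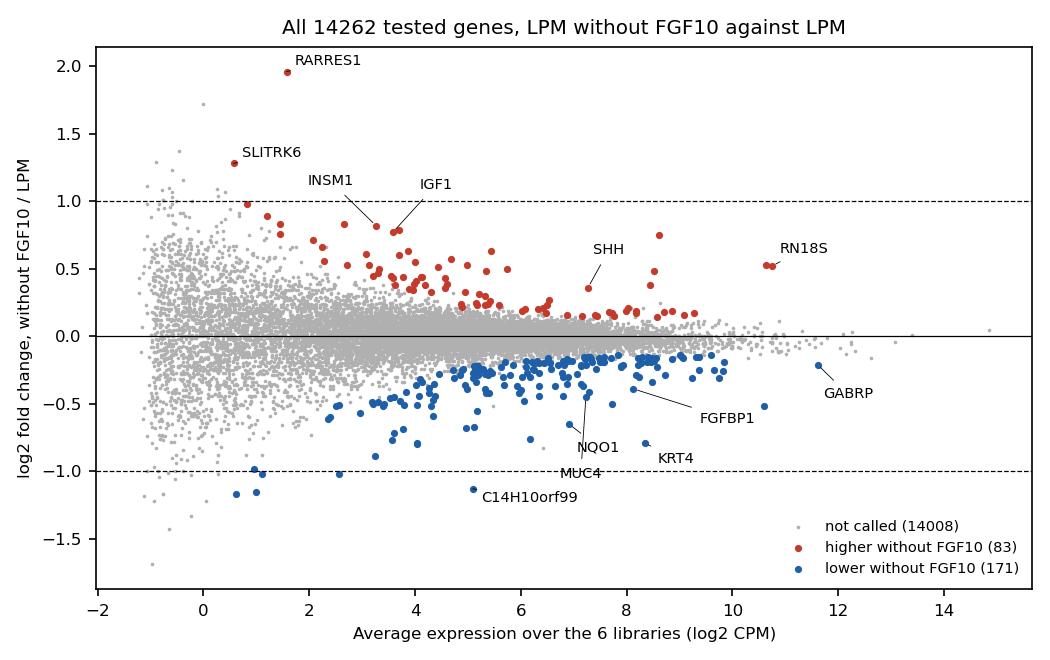
Log2 fold change (without FGF10 over LPM, vertical axis) against average expression over the 6 libraries (log2 CPM, horizontal axis) for the 14262 tested genes, with the 83 genes called higher in red, the 171 called lower in blue and dashed lines at a 2-fold change. Called genes lie mostly inside the dashed lines, and 5 blue and 2 red points lie beyond them.

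The precision behind these values was high for genes of moderate or high expression. Over the 10053 genes whose log2 CPM averaged at least 3, the median standard error (SE) of a log2 fold change was 0.055. For 99.2% of those genes the 95% interval lay within a 1.5-fold change in either direction, and for 99.9% within a 2-fold change.

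No transcript of the withdrawn ligand was detected in either arm. FGF10 (chromosome 16, 28695465 to 28779953) had 0 counts in all 6 libraries, as did FGF7, another ligand of the epithelial FGFR2 form. A count of 0 over an arm allows up to 0.0435 CPM in LPM and 0.0474 CPM without FGF10, an allowance of 3 counts that covers counting error only. Of 22 FGF ligand genes, 7 passed the filter and 0 were called by edgeR, DESeq2 or limma-voom (1 at an unadjusted p under 0.05). FGF11, an intracellular member of the family, was the most abundant of them at 38.6 CPM in LPM and 39.5 CPM without FGF10. FGF2 measured 6.51, 6.49 and 6.04 CPM in LPM and 6.78, 7.64 and 7.8 CPM without FGF10, ranges that did not overlap, yet the difference was not called (1.17-fold, adjusted p = 0.481).

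Among the receptors, FGFR3 and FGFR1 were more abundant per length of transcript than FGFR2, at 64.7, 39.3 and 5.37 CPM per kb of exon in LPM. The receptor that FGF10 binds, FGFR2 (chromosome 14, 131183095 to 131285001), measured 13.5, 15.7 and 13.4 CPM in LPM and 15.6, 16.9 and 17.2 CPM without FGF10. The arms overlapped and the difference was not called (1.17-fold higher, log2 interval 0.04 to 0.40, adjusted p = 0.269). FGFR1 and FGFR3 differed by log2 fold changes of 0.04 and -0.03, with intervals inside -0.11 to 0.13. FGFR4 stayed at or under 0.559 CPM in every library and was not tested. Counts per gene do not distinguish the splice forms.

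The carrier protein gene FGFBP1, whose secreted product releases FGFs from the matrix, had the smallest p of the FGF system genes. FGFBP1 (chromosome 8, 11186360 to 11189317) measured 318, 318 and 317 CPM in LPM and 245, 253 and 229.7 CPM without FGF10. The LPM values were nearly identical, all 3 lay above the other arm, and the gene fell 1.31-fold (log2 fold change -0.39, SE 0.04, adjusted p = 7.77e-07). The heparan sulfate carrier gene GPC4 rose 1.26-fold from 13.7 to 17.4 CPM (adjusted p = 0.0486), a call that 6 of 13 alternative analyses lost, 4 of them by leaving out 1 library. The other 25 of 27 receptors, cofactors and adaptors tested were not called, and the list's median log2 fold change was 0.03, against 0.00 for all genes. They included the coreceptor KLB at 447 and 449 CPM (interval -0.07 to 0.08) and the adaptor FRS2 at 19.1 and 21.1 CPM (interval -0.01 to 0.30).

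Feedback inhibitors of the ERK pathway were not called in either direction. Of 20 inhibitor genes tested, 0 were called by edgeR, DESeq2 or limma-voom, 5 had an unadjusted p under 0.05, and the median log2 fold change was 0.00. Over all genes tested 1.78% were called and 1676 of 14262 had an unadjusted p under 0.05. With so few inhibitor genes, 0 calls is near the overall share. DUSP6, the phosphatase of ERK, measured 165, 167 and 153 CPM in LPM and 163, 166 and 148 CPM without FGF10, overlapping ranges with an interval of -0.12 to 0.07 on the log2 scale. SPRED1 and SPRY2 had intervals of -0.08 to 0.08 and -0.06 to 0.23. SPRY4 measured 17.2, 17 and 15.7 CPM in LPM against 20.2, 21.4 and 18.8 CPM without FGF10, with no overlap and the higher values in the arm lacking the ligand (1.21-fold, adjusted p = 0.0686). DUSP5 was at 168 and 147 CPM (interval -0.31 to -0.07, adjusted p = 0.113).

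Among 23 ETS factors and ERK-responsive targets 1 was called, against 1.78% of all genes tested, and it rose. ETV5 (chromosome 13, 123873346 to 123930292), an ETS factor downstream of FGF receptors, measured 44, 44.2 and 44.5 CPM in LPM and 51.3, 53.3 and 50.9 CPM without FGF10. The groups did not overlap and the gene rose 1.17-fold (log2 fold change 0.23, SE 0.05, adjusted p = 0.00823), although without the second LPM library its adjusted p was 0.0705. Its relative ETV4 was at 173 and 177 CPM (interval -0.05 to 0.12). The immediate early genes EGR1 and FOS, the AP-1 gene FOSL1, and the growth genes MYC and CCND1 were not called, with log2 fold changes from -0.13 to -0.06. Of those 5, CCND1 alone had arms that did not overlap (267, 272 and 275 CPM against 252, 244 and 263 CPM, adjusted p = 0.262). Arms also did not overlap in 16.6% of all genes tested, so 1 of 5 is near that share.

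**Figure D2:**
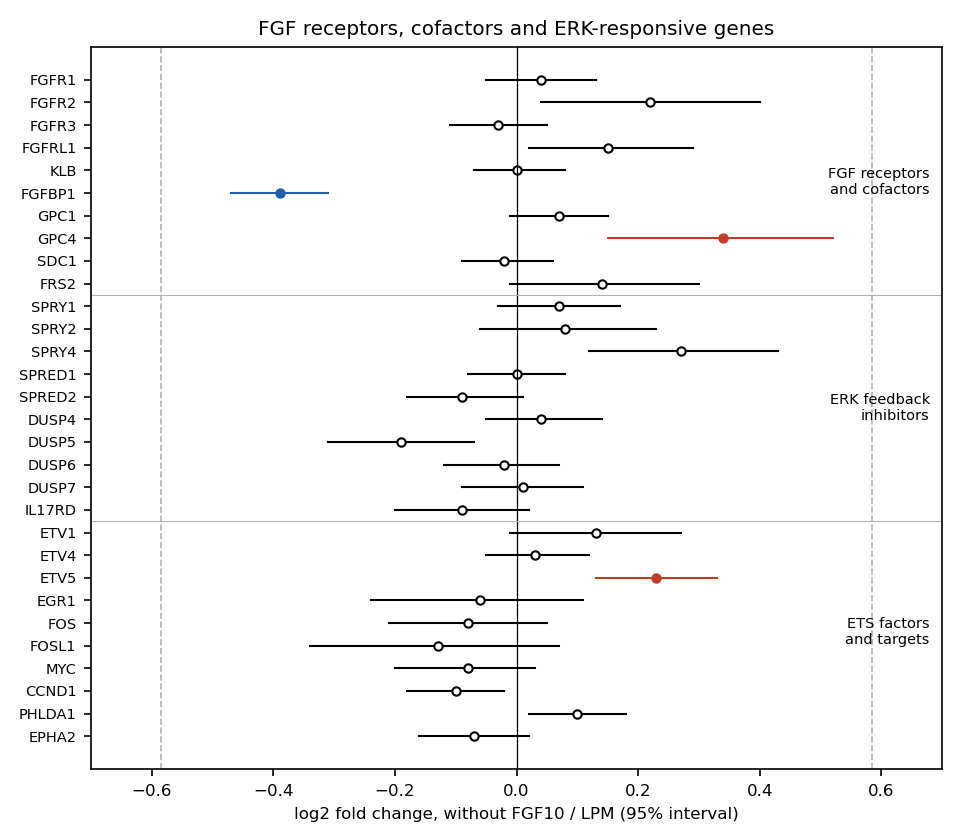
Log2 fold change (without FGF10 over LPM, horizontal axis) with its 95% interval for 10 FGF receptors, cofactors and adaptors, 10 ERK feedback inhibitors and 10 ETS factors and targets; filled points are called genes and dashed lines mark a 1.5-fold change. FGFBP1 is the filled point on the left, GPC4 and ETV5 those on the right, and the intervals of DUSP6, SPRED1 and ETV4 cross 0.

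Of 25 mucin and secretory genes tested, 11 fell and 1 rose (48.0% called), with a median log2 fold change of -0.31. The shares over all genes tested were 1.2% and 0.582%, and this list was chosen with earlier results known. The gene with the largest fall among all called genes of at least moderate expression was C14H10orf99 (chromosome 14, 85404074 to 85421474), which encodes a mucosal antimicrobial peptide. It measured 45, 43.5 and 50.9 CPM in LPM and 21.7, 17.7 and 24.5 CPM without FGF10. The arms were far apart, and the gene fell 2.19-fold (log2 fold change -1.13, SE 0.08, adjusted p = 9.12e-09). MUC20, a membrane mucin gene on chromosome 13 (134254978 to 134265950), measured 41.6, 42.8 and 42.6 CPM in LPM against 26.5, 26.4 and 26.9 CPM. Values within each arm were nearly equal, and the gene fell 1.59-fold (adjusted p = 6.36e-08). Its neighbour MUC4 (134192412 to 134248435), also a membrane mucin, fell from 171, 173 and 177 CPM to 123, 133 and 125 CPM (1.37-fold, adjusted p = 1.4e-07). MUC13, another membrane mucin, fell 1.36-fold from 129 to 94.6 CPM (SE 0.04, adjusted p = 3.47e-07).

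The gel-forming mucin genes MUC5AC and MUC5B were not called. MUC5AC measured 93.9, 191 and 40.8 CPM in LPM and 126, 23 and 37.4 CPM without FGF10, a wide spread within both arms that overlapped (adjusted p = 0.405). MUC5B was at 22.5 and 21.8 CPM (interval -0.74 to 0.60).

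Secreted products fell alongside the membrane mucins. AGR2, a disulfide isomerase needed for mucin folding, measured 77.7, 83.1 and 71.2 CPM in LPM and 59.9, 52.9 and 53.8 CPM without FGF10 (1.40-fold lower, adjusted p = 6.33e-06). The cytokine-like genes FAM3D and FAM3B fell 1.85-fold and 1.43-fold, the iron-binding lipocalin LCN2 1.24-fold from 665 to 535 CPM, and the antiprotease-like WFDC2 1.24-fold from 955 to 771 CPM. All 5 kept their calls in each of the 13 alternative analyses. The trefoil peptide gene TFF3 fell 1.27-fold (adjusted p = 0.004) and DMBT1, a mucosal scavenger receptor, 1.70-fold (adjusted p = 0.0158). Both calls were lost by DESeq2 and without the second LPM library, that of DMBT1 also without the first LPM library or the second library lacking FGF10. The adjusted p reached 0.252 for TFF3 and 0.537 for DMBT1 over the alternatives, and the arms of DMBT1 overlapped (16.5, 17.2 and 9.73 CPM against 10.4, 5.8 and 9.87 CPM). BPIFA1, an antimicrobial protein of airway and oral surfaces, went the other way, from 46.7, 40.4 and 45.4 CPM to 70.3, 55.9 and 61.2 CPM, and rose 1.41-fold (adjusted p = 4.38e-05). BPIFB5 of the same family, picked after its value was seen, rose 1.78-fold from 4.49 to 8.04 CPM (adjusted p = 0.000262). The most abundant secretory gene, CLCA1, was not called at 6643 and 5933 CPM (adjusted p = 0.0949).

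Some genes of the upper, differentiating epithelial layers fell. Of 26 suprabasal and cornified genes tested, 8 fell, 1 rose and 17 were not called (median log2 fold change -0.16). Among all genes tested, 1.2% fell and 0.582% rose. All 8 cornified envelope genes tested had a negative log2 fold change, and 4 of them fell: TGM1, the crosslinking transglutaminase, SCEL, and the plakins EVPL and PPL. RLE size factors and library size alone gave the same signs, but they differed little from TMM scaling (factors 0.9873 to 1.012). SCEL (chromosome 11, 49651589 to 49777777) measured 85.5, 90 and 97.7 CPM in LPM and 71.4, 69.3 and 71.1 CPM without FGF10 (1.29-fold lower, adjusted p = 3.92e-05). TGM1 fell 1.43-fold from 16.1 to 11.3 CPM (adjusted p = 0.00121). Among proteases and other proteins listed with them, the protease genes PRSS27 (22.4, 21.2 and 17.9 CPM against 11.5, 11 and 13.4 CPM), PRSS22 and ST14 fell. So did LYPD3, which does not encode a protease. These falls were 1.12-fold to 1.73-fold. The call of LYPD3 was lost in 9 of 13 alternatives (adjusted p up to 0.347), that of PRSS22 in 4 and that of ST14 in 2. ABCA12, the lipid transporter of keratinising cells, was the member that rose, 1.63-fold from 3.15 to 5.17 CPM (adjusted p = 0.0111). Without the second LPM library 5 of these members fell and 0 rose, and without the first library lacking FGF10 4 fell.

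Keratins were called in both directions, 3 of 13 lower and 1 higher, against 1.2% and 0.582% of all genes tested. KRT4, the keratin of nonkeratinised suprabasal mucosa (chromosome 5, 18091742 to 18099086), fell from 371, 444 and 416 CPM to 226, 206 and 279 CPM (1.73-fold, SE 0.07, adjusted p = 1.52e-07). KRT23 fell from 156, 165 and 170.0 CPM to 123, 127 and 130.2 CPM (1.29-fold). KRT20, known from mature gut and taste epithelium, rose from 303, 309 and 301 CPM to 405, 373 and 413 CPM (1.31-fold, SE 0.04, adjusted p = 1.36e-06). In all of these genes the arms were separate. KRT15, a basal keratin, was called lower (992 to 829 CPM, adjusted p = 0.0398) with overlapping arms, and 6 of 13 alternatives lost that call. Between KRT15 and the keratin gene KRT36 on chromosome 12 (21139296 to 21143556) lies LOC100515166, a protein-coding gene without a name. It is outside the 13 listed keratins and fell from 1734, 1901 and 1877 CPM to 1282, 1120.2 and 1429.6 CPM (1.44-fold, adjusted p = 3.01e-06). Whether it is a keratin was not tested. The basal keratin KRT5 and the simple keratins KRT8, KRT18 and KRT19 were among the 9 of 13 keratins not called by edgeR, and these 4 had log2 fold changes from -0.09 to 0.02. DESeq2 called 4 of the 13 keratins and limma-voom 5.

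The alarmin genes S100A8, S100A9 and S100A12, calcium-binding proteins released by stressed epithelium and neutrophils, lie together on chromosome 4 (96209670 to 96238989 for all 3) and fell together. S100A12 measured 76.5, 101 and 95.7 CPM in LPM and 50, 53.5 and 57.5 CPM without FGF10. S100A9 measured 33.7, 40.6 and 41.2 CPM against 24.2, 23.8 and 23.7 CPM, and S100A8 16.5, 22.9 and 22.5 CPM against 11.8, 12.1 and 11.6 CPM. In all 3 genes the first LPM library was the lowest of its arm and still above each library lacking FGF10, with falls of 1.61-fold to 1.74-fold. ANXA1, a phospholipid-binding annexin, fell 1.19-fold from 879.6 to 739 CPM (adjusted p = 0.000262). The other 14 of 18 S100 and annexin genes were not called by edgeR, while DESeq2 called 6 of the 18. By edgeR, 1.78% of all genes tested were called. Uncalled by edgeR was S100A2 at 3314 and 3207 CPM (interval -0.14 to 0.05).

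The NRF2 programme is the transcriptional response to electrophiles and oxidants. Of 41 of its antioxidant genes tested, 9 fell, 0 rose and 32 were not called by edgeR, and 39 of 41 had a negative log2 fold change (37 of 41 when counts were scaled by library size alone). The list's median was -0.12, and of all genes tested 1.2% fell. Some lists with 0 called genes also leaned to negative values, with 68 of 73 ribosomal protein genes and 19 of 22 unfolded protein response genes. The p53 list did not, with 10 of 22, and over all genes 7007 of 14262 were negative. NQO1, the quinone reductase (chromosome 6, 17292962 to 17302593), measured 137, 144 and 158 CPM in LPM and 85.3, 102 and 92.6 CPM without FGF10, which made it the most changed member called (1.57-fold, adjusted p = 7.94e-08). ME1, PGD and TALDO1 encode enzymes that make NADPH or run the pentose phosphate route. The mean of ME1 was 47.9 CPM in LPM and 35.8 CPM without FGF10 (1.33-fold lower, adjusted p = 0.00027). PGD fell 1.16-fold and TALDO1 1.14-fold. GCLC, a subunit of the enzyme limiting glutathione synthesis, the glutathione peroxidase GPX2, the carboxylesterase CES1 and the glucuronosyltransferase UGT1A6 fell 1.11-fold to 1.19-fold. CES1 kept its call in all 13 alternatives, whereas GPX2 lost it in 9, the replicate block, DESeq2 and limma-voom among them, GCLC in 6 and UGT1A6 in 4. The regulators themselves, NFE2L2 (264 and 262 CPM) and KEAP1 (77.4 and 75 CPM), were not called. Without the second LPM library 4 members fell, without the first library lacking FGF10 5, and with library size alone 6.

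**Figure D3:**
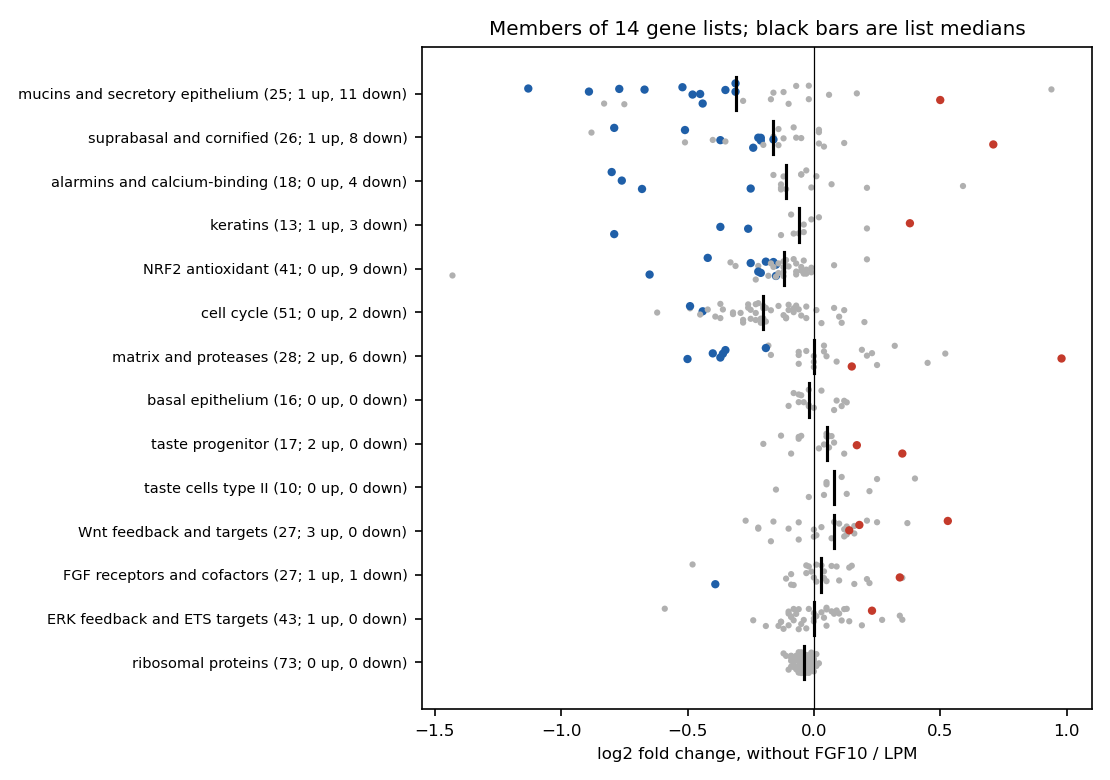
Log2 fold change (without FGF10 over LPM, horizontal axis) of each tested member of 14 gene lists, one row per list, with called genes in red (higher) or blue (lower), uncalled genes in grey and a black bar at the list median; brackets give the members tested and called. The medians of the secretory and cell cycle lists are the furthest to the left, at -0.31 and -0.20, and the ribosomal proteins form a narrow band between -0.12 and 0.02.

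Proteases and regulators of the matrix were called in both directions. Of 13 tested, 6 fell and 1 rose, while of 15 matrix protein genes 1 rose. The shares over all genes tested were 1.2% lower and 0.582% higher. MMP7, the matrilysin of glandular epithelium (chromosome 9, 33214590 to 33225080), fell from 230.5, 250.2 and 258 CPM to 168, 174 and 178 CPM (1.42-fold, SE 0.04, adjusted p = 7.94e-08). The plasminogen system fell in several members: the tissue activator PLAT 1.29-fold (118, 110.0 and 110.3 CPM against 91.7, 79.3 and 91.7 CPM), the urokinase gene PLAU 1.14-fold and its receptor gene PLAUR 1.28-fold. TIMP2, an inhibitor of matrix metalloproteinases, fell 1.32-fold from 72.6 to 54.9 CPM, and ADAM8 fell 1.28-fold. The calls of ADAM8, PLAU and PLAUR were lost in 7, 5 and 4 of 13 alternatives. MMP1, an interstitial collagenase, rose 1.97-fold, but from 1.14 to 2.25 CPM, and 8 of 13 alternatives lost the call. COL7A1, the anchoring fibril collagen, rose 1.11-fold (adjusted p = 0.0427, lost in 6 of 13). The count of 6 falling genes dropped to 3 when the first or the second LPM library, or the first or the third library lacking FGF10, was left out.

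Proliferation genes had mostly negative values of small size, and few were called. All 23 genes of G2 and mitosis had a negative log2 fold change (median -0.32), and 2 of them fell. Of all 14262 genes tested, 7007 were negative and 1.2% fell. RLE size factors and library size alone kept the 23 signs, but TMM factors spanned only 0.9873 to 1.012, so this checks little. Genes of one list can vary together, so these are not 23 independent results. CDC20, activator of the anaphase-promoting complex, measured 10.4, 11.7 and 12 CPM in LPM and 8.28, 6.95 and 9.06 CPM without FGF10 (1.41-fold, adjusted p = 0.0149). TOP2A, the mitotic topoisomerase, measured 16.4, 20.1 and 21.6 CPM against 15.1, 12 and 15.7 CPM (1.36-fold, adjusted p = 0.0192). In both genes the lowest LPM library was close to the highest library of the other arm, and both calls were lost without the second or the third LPM library or without the first or second library lacking FGF10. MKI67, the classical proliferation marker, was not called (17.8, 20.6 and 24.7 CPM against 17.7, 13.6 and 18.2 CPM, adjusted p = 0.0954). Of 23 S phase genes 0 were called by edgeR, DESeq2 or limma-voom, with 6 at an unadjusted p under 0.05 and a median of -0.11, and PCNA was at 28.2 and 29.9 CPM. CDC25B, a phosphatase that opens the way to mitosis, is outside the list and was noticed after its value was seen. It fell 1.33-fold from 70.3, 69.2 and 72.9 CPM to 54.2, 54 and 51 CPM (adjusted p = 4.26e-06).

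**Figure D4:**
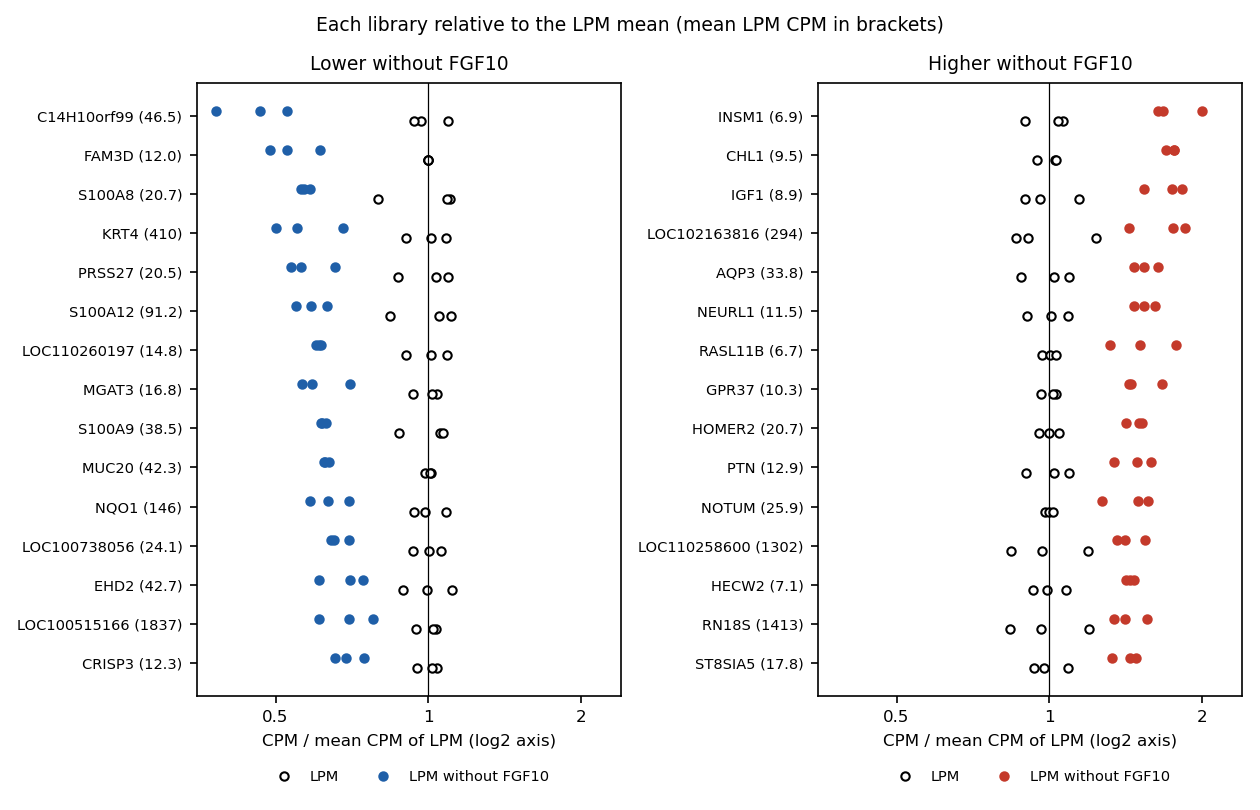
CPM of each of the 6 libraries divided by the mean CPM of LPM (horizontal axis, log2 scale) for the 15 genes with the largest falls and the 15 with the largest rises among called genes whose log2 CPM averaged at least 3 and whose arms do not overlap; open points are LPM, filled points LPM without FGF10, and brackets give the mean CPM in LPM. C14H10orf99 lies furthest to the left and INSM1 furthest to the right.

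The genes that rose included several ligands and signal regulators. SHH, the hedgehog ligand of taste bud basal cells (chromosome 18, 2546202 to 2555484), measured 142, 135 and 129 CPM in LPM and 179.8, 173 and 170.0 CPM without FGF10. The arms were separate and the gene rose 1.29-fold (log2 fold change 0.36, SE 0.04, adjusted p = 5.06e-06), a call kept in all 13 alternatives. Of the 7 other hedgehog genes tested, 0 were called by edgeR, DESeq2 or limma-voom, and 0 had an unadjusted p under 0.05. For 7 genes, 0 calls is near the 1.78% called over all genes. The receptor and target gene PTCH1 was at 18 and 18.4 CPM (interval -0.14 to 0.20), and the signal transducer SMO at 63.2 and 63.7 CPM (interval -0.08 to 0.10). Both arms received recombinant SHH.

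IGF1, insulin-like growth factor 1 (chromosome 5, 81762027 to 81909253), measured 7.99, 8.56 and 10.2 CPM in LPM and 15.6, 13.7 and 16.3 CPM without FGF10, and rose 1.71-fold (adjusted p = 4.41e-05). The receptor genes IGF1R and INSR were not called, with intervals of -0.02 to 0.18 and -0.13 to 0.10. INSM1, a zinc finger factor of neuroendocrine differentiation (chromosome 17, 28379529 to 28382554), measured 7.35, 6.19 and 7.19 CPM against 13.8, 11.3 and 11.6 CPM, the largest rise among called genes of at least moderate expression. The other 9 neuroendocrine genes tested were not called, and neither CHGA (1.74 and 1.64 CPM) nor SYP (1.33 and 1.87 CPM) exceeded 2 CPM on average.

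Targets and inhibitors of Wnt signalling were mostly positive. Of 16 tested 3 rose (0.582% of all genes did), and 14 had a positive log2 fold change, with a median of 0.12. Positive values made up 7255 of all 14262 genes. The 3 scalings gave the same count of 14 but differed little (TMM factors 0.9873 to 1.012). NOTUM, the secreted enzyme that inactivates Wnt, measured 25.4, 25.9 and 26.4 CPM in LPM and 38.7, 32.9 and 40.6 CPM without FGF10 (1.44-fold higher, adjusted p = 3.22e-05). The Wnt coreceptor inhibitor KREMEN1 rose 1.13-fold from 392 to 443 CPM and the progenitor factor SOX4 1.10-fold from 362 to 399 CPM, calls lost in 2 and 6 of 13 alternatives. Without the second LPM library, or without the first library lacking FGF10, 1 of the 3 was called. The ligands were not called (0 of 11 by edgeR, DESeq2 or limma-voom, 3 at an unadjusted p under 0.05, median -0.06), with WNT4 at 52.8 and 43.7 CPM (adjusted p = 0.0686).

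Among 17 taste progenitor genes 2 rose, the transcription factors SOX9 (199.6 to 224 CPM, 1.12-fold, adjusted p = 0.0495) and PROX1 (13 to 16.5 CPM, 1.27-fold, adjusted p = 0.0465). The share that rose over all genes tested was 0.582%. Neither call survived without the second LPM library, or without the first or second library lacking FGF10, and DESeq2 and the replicate block each lost both. Mature taste cell genes were not called by edgeR, DESeq2 or limma-voom (0 of 2 of type I, 0 of 10 of type II and 0 of 6 of type III). An unadjusted p under 0.05 was found in 0, 2 and 1 of them. With 1.78% of all genes called, 0 calls is near the overall share in lists this short. The glutamine synthetase gene GLUL, listed for type I cells, was at 2003 and 2001 CPM (interval -0.08 to 0.07). The type I genes KCNJ1 and SLC1A3 were at 0 and at most 0.0499 CPM in any library, so GLUL cannot be assigned to type I cells here. The calcium release channel gene ITPR3, listed for type II cells, was at 301 and 325 CPM (adjusted p = 0.186). The acid-sensing channel gene ASIC1, listed for type III cells, was at 9.46 and 8.74 CPM (interval -0.38 to 0.15). For the weakly expressed taste genes the intervals were wide, reaching -0.95 and 1.55 on the log2 scale among type III genes.

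Other growth factor pathways had single called members. HBEGF, a ligand of the EGF receptor, fell 1.20-fold from 125, 119.9 and 113 CPM to 95.1, 107 and 95.4 CPM (adjusted p = 0.00215), and the other 12 of 13 EGF family genes, EGFR and ERBB2 among them, were not called. DLL1, a Notch ligand, fell 1.21-fold from 47.8, 46.6 and 49.9 CPM to 41.6, 37.9 and 40 CPM (adjusted p = 0.00387), and it was the 1 called gene of 17 Notch genes. Among targets of BMP and TGF-beta, ID1 fell 1.19-fold and ID2 rose 1.26-fold. Both calls were lost without the first or second LPM library or without the first or the third library lacking FGF10.

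Further called genes of high fold or high level were of mixed function. Besides C14H10orf99 the genes that fell at least 2-fold were ADA, adenosine deaminase (7.99, 8.3 and 6.9 CPM against 4.44, 3.2 and 3.93 CPM), the glycosyltransferase gene B3GNT3, the sulfotransferase gene CHST4 and LOC100625479, the last 3 at 1.97 to 2.71 CPM in LPM. The calls of B3GNT3, CHST4 and LOC100625479 were lost without the second LPM library or the first library lacking FGF10, whereas ADA kept its call in all 13 alternatives. Of the 2 genes that rose at least 2-fold, SLITRK6, a neurite-regulating membrane protein gene, measured 0.643, 1.08 and 0.767 CPM against 1.8, 1.83 and 2.42 CPM, and its call was lost without the first LPM library or the third library lacking FGF10. RARRES1, a retinoid-responsive gene, was at 2.94, 0.939 and 10.7 CPM without FGF10 against 0.763, 1.94 and 0.959 CPM, so its 3.89-fold rise rested on 1 library, and 10 of 13 alternatives lost the call. GABRP, a GABA receptor subunit gene and the most abundant called gene that fell, went from 3352, 3301 and 3387 CPM to 2969, 2759 and 2960.3 CPM (1.16-fold, adjusted p = 0.00286).

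Among further rises, AQP3, the aquaglyceroporin of epithelia, measured 36.9, 29.8 and 34.6 CPM in LPM and 49.7, 55.3 and 52.1 CPM without FGF10 (1.55-fold, adjusted p = 9.05e-07). CHL1, a neural adhesion molecule gene, measured 9.72, 9.76 and 8.96 CPM against 16.7, 16.1 and 16.7 CPM (1.73-fold). Both had separate arms and kept their calls in all 13 alternatives, as did the ubiquitin ligase gene NEURL1 (1.54-fold), the scaffold gene HOMER2 (1.48-fold), the orphan receptor gene GPR37 (1.52-fold), the heparin-binding growth factor gene PTN (1.46-fold) and the sialyltransferase genes ST8SIA5 (1.42-fold) and ST6GAL1 (1.14-fold).

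Some gene families were assembled after their values had been seen and are given only as counts. Over all genes tested 1.2% fell and 0.582% rose. Because of how the families were picked, their counts cannot show an excess over these shares. Falls were counted in 3 of 11 tubulin genes, 3 of 7 galectin genes (LGALS1, LGALS3 and LGALS9), 2 of 4 uroplakin genes (UPK1B and UPK3BL2), 2 of 12 cathepsin genes and 4 of 39 N-acetylglucosaminyl and galactosyl transferase genes, with 0 rises in each. The matricellular genes CYR61 and NOV fell among 4 CCN genes, NOV 1.35-fold from 92.9 to 68.8 CPM. Among 10 SOX genes 3 rose, SOX4, SOX9 and SOX12.

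Ribosomal RNA moved with the arms. RN18S, the 18S rRNA gene on an unplaced scaffold, measured 1364, 1184 and 1689.5 CPM in LPM and 1998, 2199.6 and 1895 CPM without FGF10, which was 0.117 to 0.17% and 0.192 to 0.22% of counts per library. It rose 1.44-fold in edgeR (adjusted p = 0.000113) and was not called by DESeq2 (adjusted p = 0.0723). The libraries were selected for polyadenylated RNA, so this share measures rRNA left after selection. LOC110258600, which contains RN18S, rose equally, and the lncRNA gene LOC102163816 rose 1.68-fold from 267, 253 and 364 CPM to 423, 516 and 545 CPM. The mitochondrial genome took 3.31 to 3.6% of counts in LPM and 3.25 to 3.56% without FGF10. The part of residual rRNA in the differences of other genes was not tested.

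Housekeeping and stress lists held no called gene, which for lists of this size is near the 1.78% called over all genes tested. By edgeR, DESeq2 or limma-voom, 0 genes were called among the 73 ribosomal protein genes, 31 genes of glycolysis and hypoxia, 23 of sterol synthesis, 22 of the unfolded protein response, 22 of the p53 response, 14 of the actin programme, 16 of basal epithelial adhesion and identity and 41 epithelial transcription factors. The counts at an unadjusted p under 0.05 were, in that order, 10, 2, 7, 4, 3, 3, 5 and 14, against 1676 of all 14262 genes. All of these lists except glycolysis and hypoxia exceeded the share of all genes, and the epithelial transcription factors, with 14 of 41, had the highest share. The lack of calls does not show that these lists were unchanged. The basal adhesion gene COL17A1 was at 4856 and 4956 CPM (interval -0.05 to 0.11) and all 12 adhesion genes had intervals within -0.18 to 0.20. The ribosomal protein genes had intervals within -0.23 to 0.12.

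The called genes were then read in the 2 other comparisons of the series, which share no library with this experiment. In CQ, a medium in which organoids were finished after LPM and whose composition the labels do not state, 6625 of 13827 genes were called against LPM (47.9%), 3189 higher (23.1%) and 3436 lower (24.8%). Of the genes that rose without FGF10, 75 were tested there, and 54 were lower in CQ (72.0%) and 6 higher (8.0%). Of the genes that fell without FGF10, 168 were tested, and 90 were lower in CQ (53.6%) and 35 higher (20.8%). Genes that were not called in the FGF10 experiment whose log2 CPM averaged at least 3 were called lower and higher in CQ at 27.1 and 27.3%. Examples from the genes that rose without FGF10 are KRT20, at 504 CPM in that experiment's LPM arm and 5.97 CPM in CQ, and AQP3, at 138 and 0.359 CPM. Examples from the genes that fell are MMP7 (37.9 and 2.45 CPM) and KRT4 (68.5 and 8.22 CPM), whereas MUC4, which also fell without FGF10, was higher in CQ (15.2 and 23.9 CPM, adjusted p = 0.0223). The CQ libraries were shallower, at 14.67 to 16.0 M counts, and there the effect of medium and that of days in culture cannot be told apart.

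In passage 1 organoids against the foliate papillae of 5 pigs, 11011 of 16311 genes were called (67.5%), 5281 higher (32.4%) and 5730 lower (35.1%). The genes that rose without FGF10 were split, 29 of 83 higher (34.9%) and 28 lower (33.7%) in organoids. The genes that fell without FGF10 were higher in 68 of 171 (39.8%) and lower in 51 (29.8%). These shares were near those of all genes. They were further from those of the genes not called in the FGF10 experiment whose log2 CPM averaged at least 3. Of these uncalled genes, 46.5% were higher and 18.8% lower, so the reading depends on the set used as reference. KRT4 measured 25162 CPM in papillae and 678 CPM in passage 1 organoids, and S100A9 1686 and 42.3 CPM, so both were far below the tissue level in medium that held FGF10. FGFBP1 and MMP7 were instead higher in organoids, at 556 against 79.2 CPM and 208 against 6.61 CPM. SHH rose in both comparisons, with 6.66 CPM in papillae and 75 CPM in organoids. Tissue, culture and extraction kit cannot be told apart in that comparison.

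**Figure D5:**
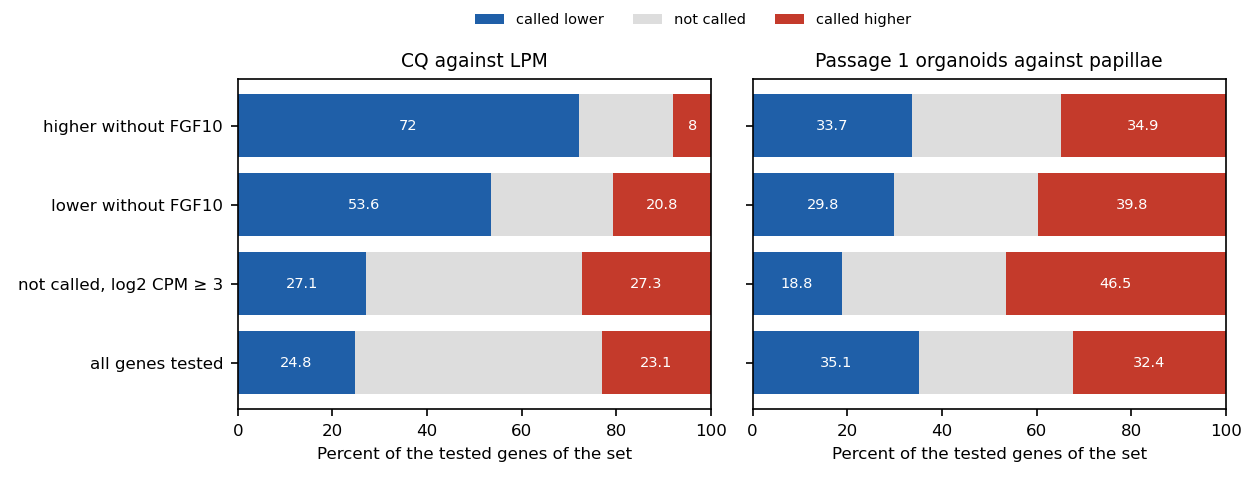
Percent of genes called lower (blue), not called (grey) and called higher (red) in CQ against LPM (left) and in passage 1 organoids against papillae (right), for the genes higher without FGF10, the genes lower without FGF10, genes not called in the FGF10 experiment whose log2 CPM averaged at least 3, and all genes tested. In the left panel the blue share is 72.0% and 53.6% for the called genes and 24.8% for all genes.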

How the data were processed

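RNA sequencing measured gene expression in 3 organoid libraries grown in LPM and 3 grown in LPM lacking FGF10, grouped by their titles. The deposited values are whole-number counts per gene, which the authors obtained with featureCounts 2.0.3 for these 6 libraries, per the file headers, on reads aligned with STAR 2.7.10b, per the submitters' processing notes. Polyadenylated RNA was captured on oligo-T beads, per the labels' protocols. Counting ignored strand, per the file headers, so overlapping and antisense genes, and near-identical members of families such as BPIF, S100A, keratin, SLA and tubulin genes, are uncertain. Gene positions are those in the count files, and 26853 of 27376 genes had the same start and end in RefSeq's Sscrofa11.1 table.

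Counts of the 6 libraries alone were filtered with filterByExpr and tested with edgeR 4.0.16 (quasi-likelihood test, TMM scaling) in R 4.3.3, with Benjamini-Hochberg adjustment over 14262 genes, and called at an adjusted p under 0.05. CPM values are scaled by TMM, fold changes compare the arm lacking FGF10 with LPM, and intervals are 95% intervals from the same fit. The totals of 19.64 to 25.23 M counts per library, with a biological coefficient of variation of 0.0406, set the precision. No library pair of an arm was as alike as sampling noise alone would give (chi-square per degree of freedom of 2.569 to 4.664). The same test was run for CQ against LPM (3 and 3 libraries) and for passage 1 organoids against papillae (5 and 5, from the same 5 pigs by their titles). An entry with no gene name held 0.326 to 0.477% of counts in the CQ experiment and was left out. The code was checked on 1 set of simulated counts. It recovered 80% of the genes changed 1.25-fold and 100% of those changed 1.5-fold, and 8.21% of its calls were false. The changed genes were drawn only from genes of moderate or high expression, so recovery of weakly expressed genes was not measured.

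The members and the 38 gene lists, which hold 1042 genes (804 tested), were chosen with earlier results of these data known. Named genes were the FGF and ERK genes set by name, the 15 highest and 15 lowest fold changes among called genes whose log2 CPM averaged at least 3 and whose arms did not overlap, in each list at most 3 called members a direction (or the most abundant member), every called gene of at least 2-fold, and the 5 most abundant called genes per direction; other genes named were chosen after their values were seen. Some genes that this rule names are not reported here. Alternatives were the replicate number as a block, RLE size factors, library size alone, no filter, a mean count of at least 10, DESeq2 1.42.0, limma-voom (limma 3.58.1) and each library left out in turn. A planned count of promoter motifs was not run, since no promoter sequences were used here.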

Additional observations from a re-analysis of the deposited data

How the results depend on the processing

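Of the 254 called genes, 96 (26 higher, 70 lower) kept their call in all 13 alternative analyses, and 0 changed direction in any of them. Without the filter on low counts 429 genes were called (132 higher, 297 lower), of which 2 had not been tested with it. Leaving out 1 library gave 125 to 294 called genes, 37 to 90 higher and 82 to 204 lower. The lowest values came without the second LPM library (125 in all, 43 higher, 82 lower) and without the first library lacking FGF10 (128 in all, 37 higher, 91 lower), and these fits have fewer samples. RLE size factors gave 253, a mean count of at least 10 gave 253, limma-voom 236, library size alone 220 and DESeq2 218, with 57.7 to 71.1% of calls lower over all alternatives. With the replicate number as a block 234 genes were called (69 higher, 165 lower), and 216 of the 254 kept their call. Same-numbered libraries of the arms correlated at -0.064, -0.116 and 0.109 in their deviations from the arm means, and differently numbered ones at -0.181 to 0.228. Same-numbered passage 1 organoids and papillae, from the same pigs by their titles, reached only 0.03 to 0.113. The check therefore cannot show whether the numbers pair the arms. The block gave shares of the called genes in CQ and in organoids that stayed within 1.5 times those reported, with 53 and 6 of the genes that rose and 87 and 32 of those that fell called lower and higher in CQ, and 27 and 24, and 52 and 66, in organoids. Some uncalled values near 0 changed sign on the log2 scale. Over the fits that left out 1 library, SPRED1 ranged from -0.019 to 0.014, DUSP4 from -0.012 to 0.084, DUSP6 from -0.062 to 0.025, EGR1 from -0.197 to 0.064, GLUL from -0.008 to 0.008 and CDKN1A from -0.022 to 0.071. With library size alone GLUL was at 0.015. The cause of these changes was not tested. Depth limits genes of low expression, among them FGFR4, for which a difference was not detectable.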
